A study of Homo sapiens with 72 samples.

Results

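The p53 target genes are 10 genes, CDKN1A, MDM2, AEN, PMAIP1, BBC3, FAS, TNFRSF10B, ZMAT3, PLK2 and PLK3, picked by symbol as known transcriptional targets of the tumour suppressor p53. All 10 were found among the 44659 gene names of the count table, and all 10 passed the low count filter in every comparison. Expression was read with QuantSeq, a method that sequences the 3′ ends of polyadenylated transcripts, from cytoplasmic RNA of A375, an established human skin melanoma line. In one experiment, cells were transfected for 42 h with a pool of 2 siRNAs against CTU2, a gene needed for the thiolation of tRNAs (siCTU2), or with an siRNA against luciferase GL2 (siGL2). In the other, cells were kept for 18 h without glutamine (mQ) or with glutamine (pQ). All cells then received the transcription inhibitor triptolide at 25 µM (T arm), or triptolide plus 100 µg/ml of the translation inhibitor cycloheximide (TCHX arm), and were harvested at 0, 3 or 5 h. This gave 24 groups of 3 replicates. The 0 h libraries came from cells harvested as soon as the drugs had been added, so that they stand for the state before decay. The labels do not say that replicates were separate cultures, and p-values therefore measure the spread between libraries, which may be technical.

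p53 is a transcription factor that is kept low in unstressed cells by MDM2, a ubiquitin ligase and itself a p53 target, and that accumulates after DNA damage, ribosomal stress and other insults. Its targets stop the cell cycle, mainly through CDKN1A, the p21 inhibitor of cyclin-dependent kinases, or promote cell death. PMAIP1 (NOXA) and BBC3 (PUMA) are BH3-only proteins that neutralise anti-apoptotic BCL2 family members, FAS and TNFRSF10B (DR5) are death receptors at the cell surface, and AEN is an apoptosis-enhancing nuclease. ZMAT3 is an RNA-binding zinc finger protein, and PLK2 and PLK3 are polo-like kinases of the stress response. PMAIP1, BBC3 and TNFRSF10B are also known targets of ATF4 or CHOP, the transcription factors of the amino acid stress response.

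p53 binds a 20-base element made of 2 adjoining 10-base repeats, each with C and G at fixed core positions. The element was searched, without a spacer, within 3000 bases of the canonical start site of each member, in the GRCh38 genome with the GENCODE annotation. The best match of 9 members is shown because p53 binding to such an element is what defines a target, so that a match is a description and not a finding. Letters run 5′ to 3′ along the strand of the gene, and capitals mark the core C and G of each repeat, which every match had to keep.
CDKN1A: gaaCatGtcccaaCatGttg
MDM2: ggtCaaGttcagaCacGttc
AEN: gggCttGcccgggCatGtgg
PMAIP1: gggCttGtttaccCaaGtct
BBC3: ctgCaaGtcctgaCttGtcc
FAS: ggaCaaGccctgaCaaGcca
ZMAT3: aaaCaaGtccagaCatGcct
PLK2: aaaCatGcctggaCttGccc
PLK3: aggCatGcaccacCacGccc

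The CDKN1A match (chr6:36676449-36676468, plus strand) lay 2256 bases upstream of the start site, outside the canonical transcript, and differed from the consensus at 2 positions. The matches of PLK2 (chr5:58462274-58462293, minus strand, 2197 bases upstream) and ZMAT3 (chr3:179070188-179070207, minus strand, intron 1) had 0 mismatches. AEN (chr15:88621306-88621325, plus strand) and PMAIP1 (chr18:59899549-59899568, plus strand) held matches 25 and 438 bases upstream. The MDM2 match (chr12:68808923-68808942, plus strand) and the FAS match (chr10:88991309-88991328, plus strand) lay in intron 1, at 755 and 520 bases downstream of the start. These 4 matches had 2 mismatches each. The BBC3 match (chr19:47231320-47231339, minus strand, 130 bases upstream) had 3 mismatches, and that of PLK3 (chr1:44801351-44801370, plus strand, intron 3) had 4. A match with at most 2 mismatches was found in 8 of the 10 members, TNFRSF10B among them, and in 4.65% of 19962 genes searched in the same way. At most 4 mismatches, as in PLK3, were met by 63.1% of all genes. A match describes the letters of these windows, and p53 binding was not measured.

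The libraries held between 5987692 and 15534331 counts. CTU2 was measured at 2.95, 1.01 and 1.32 CPM (counts scaled to an equal total per library) in the siCTU2 T arm at 0 h, against 21.1, 22.0 and 24.2 CPM in siGL2. The library labelled siCTU2 TCHX 5 h replicate 3 goes against its label, with 10.4 CPM of CTU2 against 0.203 and 0.168 CPM in replicates 1 and 2. It is 1 of 3 libraries, with mQ T 5 h replicate 3 and pQ TCHX 0 h replicate 3, with 19896 to 20364 genes detected, where the other 69 libraries had 15507 to 17495. Fits without each of them were made for the decay and cycloheximide results. None of the 3 enters the decay difference over 3 h, which is taken from T arm libraries at 0 and 3 h. As to the cell type, 8 of 8 melanocyte lineage markers had counts in every condition at 0 h, with a summed level of 779 to 978 CPM in siCTU2, 978 to 1111 in siGL2, 722 to 891 in mQ and 980 to 1129 in pQ, mainly from SOX10, S100B and MITF, whereas the differentiation marker MLANA stayed below 1 CPM. Only 5 of the 8 lineage markers passed the low count filter in each of the 0 h comparisons, so that a count does not mean a high level. Of 7 markers of other cell types, 3 (CD3E, KRT5 and PECAM1) were at 0 in all 12 T arm libraries at 0 h, and the 7 summed to 2.35 to 8.86 CPM.

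Levels in CPM are compared for 1 gene between libraries, and not between genes. At 0 h in the T arm, CDKN1A was measured between 40.8 and 273 CPM, AEN between 68.2 and 152 CPM, and ZMAT3 between 48.8 and 157 CPM over the 12 libraries. FAS had the fewest reads, with 13 to 109 counts per library, and its values are the least precise.

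**Figure D1:**
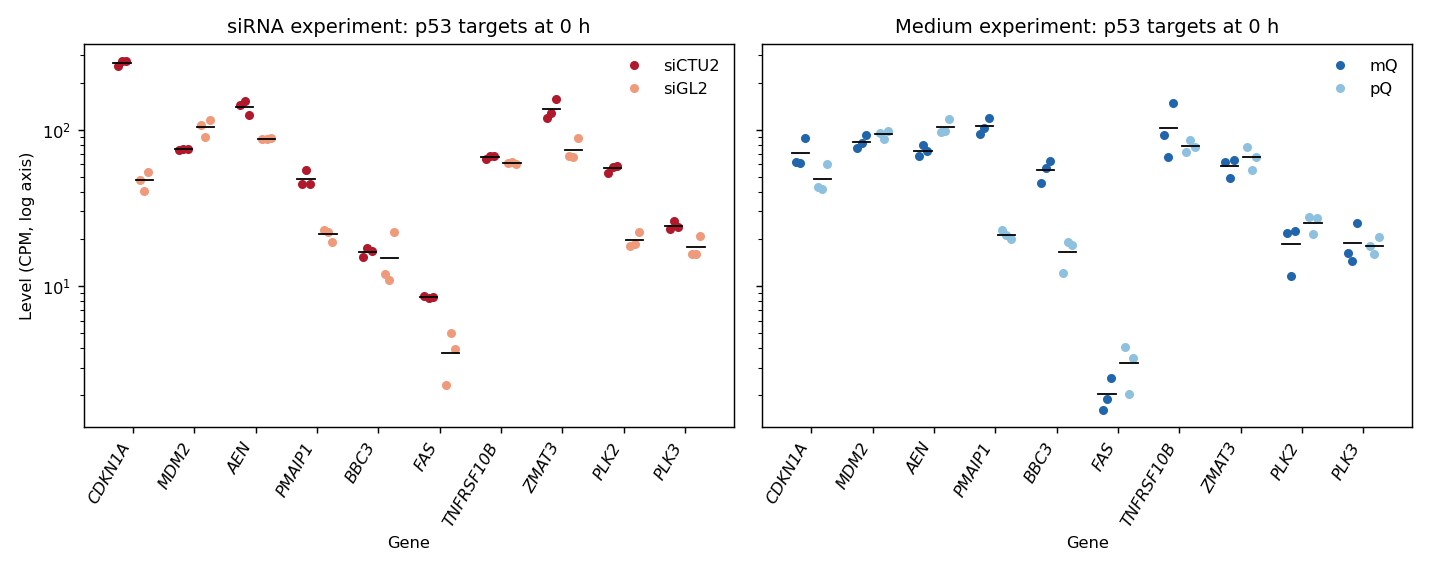
Level in CPM (log axis) of each of the 10 p53 target genes in the T arm at 0 h, with 1 point per library and a bar at the mean of the 3 libraries of siCTU2, siGL2, mQ and pQ. CDKN1A stands at 256 to 273 CPM in siCTU2 and at 40.8 to 88.3 CPM in the other conditions, and PMAIP1 and BBC3 are highest in mQ.

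The first comparison asked how the targets differed between CTU2-depleted and control cells before decay. With edgeR's quasi-likelihood test over 12292 genes, 7 of the 10 members were significantly higher in siCTU2 than in siGL2, where 17.8% of all genes were called higher. MDM2 was the 1 member called lower, in a comparison where 18.2% of all genes were called lower, and BBC3 and TNFRSF10B did not pass. The median log2 fold change of the members was 0.76, against 0.0048 for all genes tested. In bulk RNA, fewer expressing cells and less RNA per cell cannot be told apart.

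CDKN1A, the cell cycle inhibitor, was at 256, 273 and 273 CPM in siCTU2 and at 47.7, 40.8 and 54.0 CPM in siGL2. The groups lay far apart, with the lowest siCTU2 library well above the highest siGL2 library. The level was 5.64-fold higher in siCTU2 (log2 fold change 2.49 ± 0.10, SE, adjusted p = 1.12e-12), and only 0.504% of the genes tested had a larger log2 fold change. The separate 6 libraries of the TCHX arm at 0 h gave a log2 fold change of 2.50 (adjusted p = 7.86e-12).

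PLK2, a polo-like kinase, was at 53.1, 57.7 and 58.9 CPM in siCTU2, against 17.9, 18.6 and 22.2 CPM in siGL2. All siCTU2 libraries were above all siGL2 libraries, and the difference was 2.89-fold (log2 1.53 ± 0.12, SE, adjusted p = 2.20e-08). Its relative PLK3 was at 23.1, 26.0 and 23.9 CPM against 16.05, 16.04 and 20.9 CPM. These groups did not overlap either, but were close, and the difference of 1.38-fold (adjusted p = 0.0217) was not found in the TCHX arm at 0 h (log2 0.01, adjusted p = 0.980). The PLK3 call was also lost without siCTU2 replicate 2 (0.41, adjusted p = 0.0731), without siGL2 replicate 1 (0.39, adjusted p = 0.0935) or without siGL2 replicate 2 (0.40, adjusted p = 0.0805).

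Among the genes of cell death, PMAIP1 was at 44.7, 55.1 and 44.9 CPM in siCTU2 and at 22.9, 22.1 and 19.1 CPM in siGL2, with no overlap. It was 2.25-fold higher (log2 1.17 ± 0.13, SE, adjusted p = 1.24e-06). BBC3, the other BH3-only gene, was at 15.4, 17.5 and 16.7 CPM against 12.01, 10.96 and 22.1 CPM. Here the groups overlapped, because siGL2 replicate 3 was above every siCTU2 library, and the log2 fold change of 0.14 (95% interval -0.28 to 0.57) did not pass (adjusted p = 0.646). Without siGL2 replicate 3, BBC3 was called higher (0.52, adjusted p = 0.0405), whereas its value was -0.0030 when siGL2 replicate 1 was left out and -0.04 when siGL2 replicate 2 was.

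The death receptors differed from each other. FAS had 82, 91 and 109 counts in siCTU2 and 20, 44 and 32 counts in siGL2, not scaled for library size. After scaling, FAS was 2.26-fold higher in siCTU2 (log2 1.18 ± 0.28, SE, adjusted p = 0.00296). TNFRSF10B was at 64.7, 67.4 and 67.6 CPM against 61.3, 62.4 and 60.6 CPM. These narrow groups did not overlap, but the log2 fold change of 0.11 (95% interval -0.06 to 0.29) did not pass (adjusted p = 0.350), and it was -0.11 in the TCHX arm at 0 h. AEN was at 144, 152 and 124 CPM against 87.2, 87.4 and 88.8 CPM, and was 1.59-fold higher (log2 0.67, adjusted p = 8.39e-06). ZMAT3 was at 120, 128 and 157 CPM against 67.8, 66.6 and 88.8 CPM, and was 1.81-fold higher (log2 0.86, adjusted p = 1.31e-05). Neither gene overlapped between the groups.

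MDM2 went the other way. It was at 74.6, 75.2 and 74.9 CPM in siCTU2 and at 107, 89.5 and 115 CPM in siGL2, so that the 3 siCTU2 libraries were nearly equal and all lower than the controls. The difference was 1.39-fold (log2 -0.47 ± 0.10, SE, adjusted p = 0.000758), and -0.57 in the TCHX arm at 0 h (adjusted p = 9.46e-05).

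**Figure D2:**
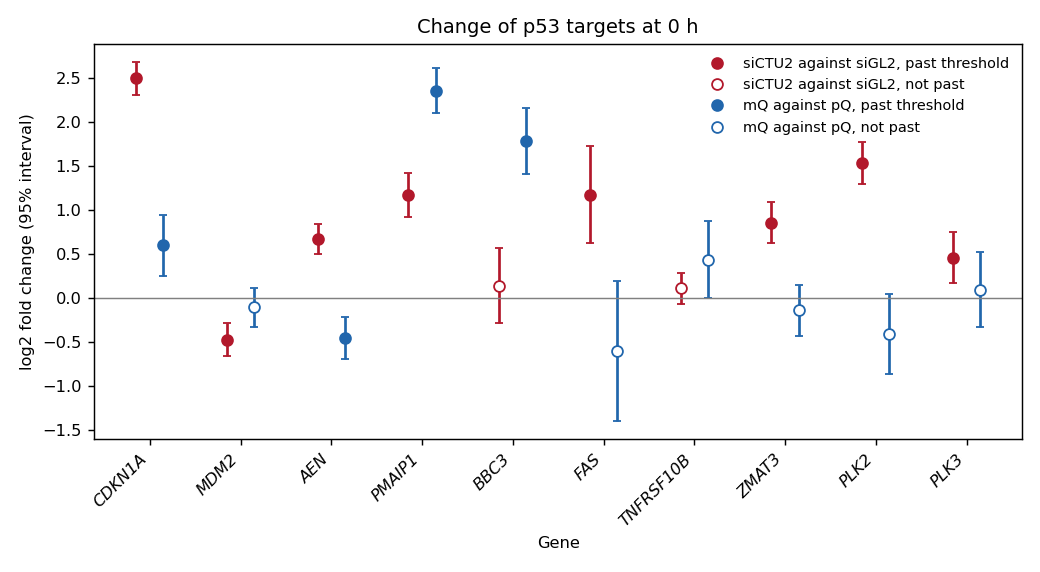
Log2 fold change at 0 h of the 10 p53 target genes, siCTU2 against siGL2 and mQ against pQ, with bars for the 95% interval and filled points for an adjusted p under 0.05 (edgeR, 6 libraries per comparison). CDKN1A (2.49) and PLK2 (1.53) lead in siCTU2, and PMAIP1 (2.36) and BBC3 (1.78) lead in mQ.

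The same was asked of glutamine-free medium. With edgeR over 12374 genes, 3 of the 10 members were higher in mQ than in pQ and 1 was lower, against 12.5% of all genes called higher and 12.4% called lower. The median log2 fold change of the members was -0.0059, against 0.0098 for all genes. PMAIP1 and BBC3, the BH3-only genes, carried most of the difference, and 6 members did not pass. Of the 3 members also known as ATF4 or CHOP targets, 2 were higher in mQ, and 1 of the 3 was higher in siCTU2, where 17.8% of all genes were.

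PMAIP1 was at 93.6, 103 and 119 CPM in mQ and at 22.9, 21.1 and 20.0 CPM in pQ. The groups were far apart, with a 5.12-fold difference (log2 2.36 ± 0.13, SE, adjusted p = 6.00e-07), and 0.331% of the genes tested had a larger log2 fold change. BBC3 was at 45.4, 56.8 and 63.3 CPM against 12.1, 19.2 and 18.4 CPM, again without overlap, and was 3.44-fold higher (log2 1.78 ± 0.19, SE, adjusted p = 0.000105). The TCHX arm at 0 h gave log2 fold changes of 1.89 for PMAIP1 (adjusted p = 0.000754) and 1.45 for BBC3 (adjusted p = 0.00145).

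CDKN1A was at 62.4, 61.5 and 88.3 CPM in mQ and at 43.3, 41.6 and 60.02 CPM in pQ. In both media replicate 3 was the highest library, and the lowest mQ library was only just above the highest pQ library. The 1.52-fold difference (log2 0.60 ± 0.18, SE, adjusted p = 0.0278) was lost in the TCHX arm at 0 h (0.31, adjusted p = 0.631) and regained there without pQ replicate 3 (0.85, adjusted p = 0.00221), the library with extra genes detected. It was also lost without mQ replicate 3, pQ replicate 1 or pQ replicate 2.

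AEN was at 68.2, 79.8 and 72.6 CPM in mQ and at 97.0, 98.5 and 118 CPM in pQ, and was 1.37-fold lower in mQ (log2 -0.45, adjusted p = 0.0173), the reverse of its direction in siCTU2. The AEN call was lost without mQ replicate 1 and without pQ replicate 3. TNFRSF10B was at 92.2, 66.5 and 149 CPM in mQ and at 72.2, 86.5 and 77.0 CPM in pQ. The mQ libraries spread widely around the pQ libraries, and the log2 fold change of 0.44 did not pass (adjusted p = 0.175), although it did in the TCHX arm at 0 h (0.85, adjusted p = 0.0107) and without mQ replicate 2 (0.68, adjusted p = 0.000948). MDM2 (-0.11), ZMAT3 (-0.14), PLK2 (-0.41), PLK3 (0.09) and FAS (-0.60, 95% interval -1.39 to 0.20) did not pass, and their groups overlapped. The siRNA and the medium experiments had their own controls, and the difference between the 2 responses was not tested.

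Other genes of the pathway were examined from lists. Among 35 other p53 targets, 26 could be tested in siCTU2 against siGL2, of which 13 were higher and 1 lower, with a median log2 fold change of 0.31. Of all genes tested, 17.8% were called higher and 18.2% lower. The largest rises were those of BTG2, an antiproliferative gene, which was at 11.9, 7.47 and 11.3 CPM against 1.39, 2.71 and 3.21 CPM (log2 2.06, adjusted p = 4.25e-05), of STEAP3 (0.95, adjusted p = 0.0358) and of RRM2B, a subunit of ribonucleotide reductase (0.72, adjusted p = 0.000464). NINJ1 was lower (-0.68, adjusted p = 0.0160). Of 14 p53 regulators, 4 were higher and 2 lower, against the same 17.8% and 18.2% of all genes. The largest rises were those of the acetyltransferases EP300 (0.47, adjusted p = 0.000356) and CREBBP (0.38, adjusted p = 0.00293) and of the ribosomal protein gene RPL5 (0.25, adjusted p = 0.00182). The lower genes were the kinase ATM (-0.54, adjusted p = 0.0100) and MDM4, a partner of MDM2 (-0.23, adjusted p = 0.0462).

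In mQ against pQ, 25 of the other p53 targets could be tested, of which 3 were higher and 4 lower, with a median of -0.02. These counts lie near the shares of all genes, with 12.5% called higher and 12.4% lower. GDF15, a secreted stress factor, was at 3281, 3422 and 4302 CPM in mQ and at 658, 702 and 1268 CPM in pQ (log2 2.12, adjusted p = 8.33e-05), with no overlap. NINJ1 (0.67, adjusted p = 0.0172) and PHLDA3, an inhibitor of AKT (0.51, adjusted p = 0.00778), were also higher. KITLG, the KIT ligand (-1.32, adjusted p = 0.0057), SESN1 (-0.94, adjusted p = 0.0185) and STEAP3 (-0.91, adjusted p = 0.0267) were lower. Of the 14 regulators, MDM4 was the 1 called, and it was higher (0.47, adjusted p = 0.00802), where 12.5% of all genes were.

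After triptolide, loss of each mRNA was followed on counts scaled to stable genes, which are genes whose share of the library rose after the transcription block in every replicate (198 in the siRNA experiment and 82 in the medium experiment, with 0 members among them). Changes over time are therefore relative to those genes. With edgeR on the 18 libraries of each condition, 8 members fell over 3 h in the T arm of siCTU2, 7 in siGL2, 7 in mQ and 9 in pQ, and 0 members rose. Of all genes tested, 36% fell in siCTU2, 28.6% in siGL2, 55.4% in mQ and 55.2% in pQ. The median log2 change of the members was -1.35 in siCTU2, -0.94 in siGL2, -1.44 in mQ and -1.30 in pQ. All genes had medians of -0.55, -0.47, -0.71 and -0.69. With TMM scaling, 6, 4, 5 and 5 members fell and 0 rose, and 16.9, 13.7, 19.0 and 15.2% of the genes called were higher, against 3.26, 3.53, 1.95 and 1.88% with the stable genes. Without replicate 1, the members that passed numbered 5, 3, 6 and 7 in the 4 conditions in the same order, without replicate 2 they numbered 6, 3, 4 and 7, and without replicate 3 they numbered 10, 8, 8 and 8. All genes called numbered 1182, 1396, 4034 and 3272 without replicate 1, 2925, 1277, 2047 and 3567 without replicate 2, and 5892, 6171, 7733 and 8621 without replicate 3.

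PLK2 and BBC3, a kinase and a BH3-only gene, were lost most. In the T arm at 3 h, 7.87, 13.4 and 10.996% of the 0 h PLK2 level was left in siCTU2 and 13.4, 12.4 and 7.07% in siGL2, where the medians of all genes were 68.6% and 72.1%. In mQ, 2.87, 11.4 and 3.13% was left, and in pQ 8.001, 4.01 and 8.14%. The log2 change was -3.21 in both siRNA conditions, -4.42 in mQ and -3.84 in pQ, and between 1.00% and 1.85% of the genes tested had a lower value.

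BBC3 fell by 2.66 on the log2 scale in siCTU2, by 2.91 in siGL2, by 4.28 in mQ and by 3.25 in pQ. In mQ, where its 0 h level was highest, 5.37, 5.17 and 4.93% was left at 3 h, against 20.5, 6.14 and 8.68% in pQ. The mQ libraries were all lower than the pQ libraries, and the difference in decay did not pass (log2 -1.03, 95% interval -2.81 to 0.74). PLK3 and AEN followed, with log2 changes of -1.80 and -1.63 in siCTU2, -1.74 and -2.04 in siGL2, -3.04 and -2.99 in mQ, and -2.71 and -2.52 in pQ. These 4 short-lived mRNAs passed the test in all 4 conditions, with adjusted p-values from 8.04e-08 (AEN in pQ) to 0.0140 (PLK3 in siGL2). PLK2 and BBC3 kept their calls in all 4 conditions under every alternative run, and PLK3 lost its call in siCTU2 without replicate 1 (-1.69, adjusted p = 0.0881) and in siGL2 without replicate 1 (-2.01, adjusted p = 0.125) or replicate 2 (-1.93, adjusted p = 0.112). AEN lost its call in mQ without replicate 2 (-2.77, adjusted p = 0.0557). For AEN and PLK3 in mQ, the alternative test with DESeq2 gave no adjusted p.

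**Figure D3:**
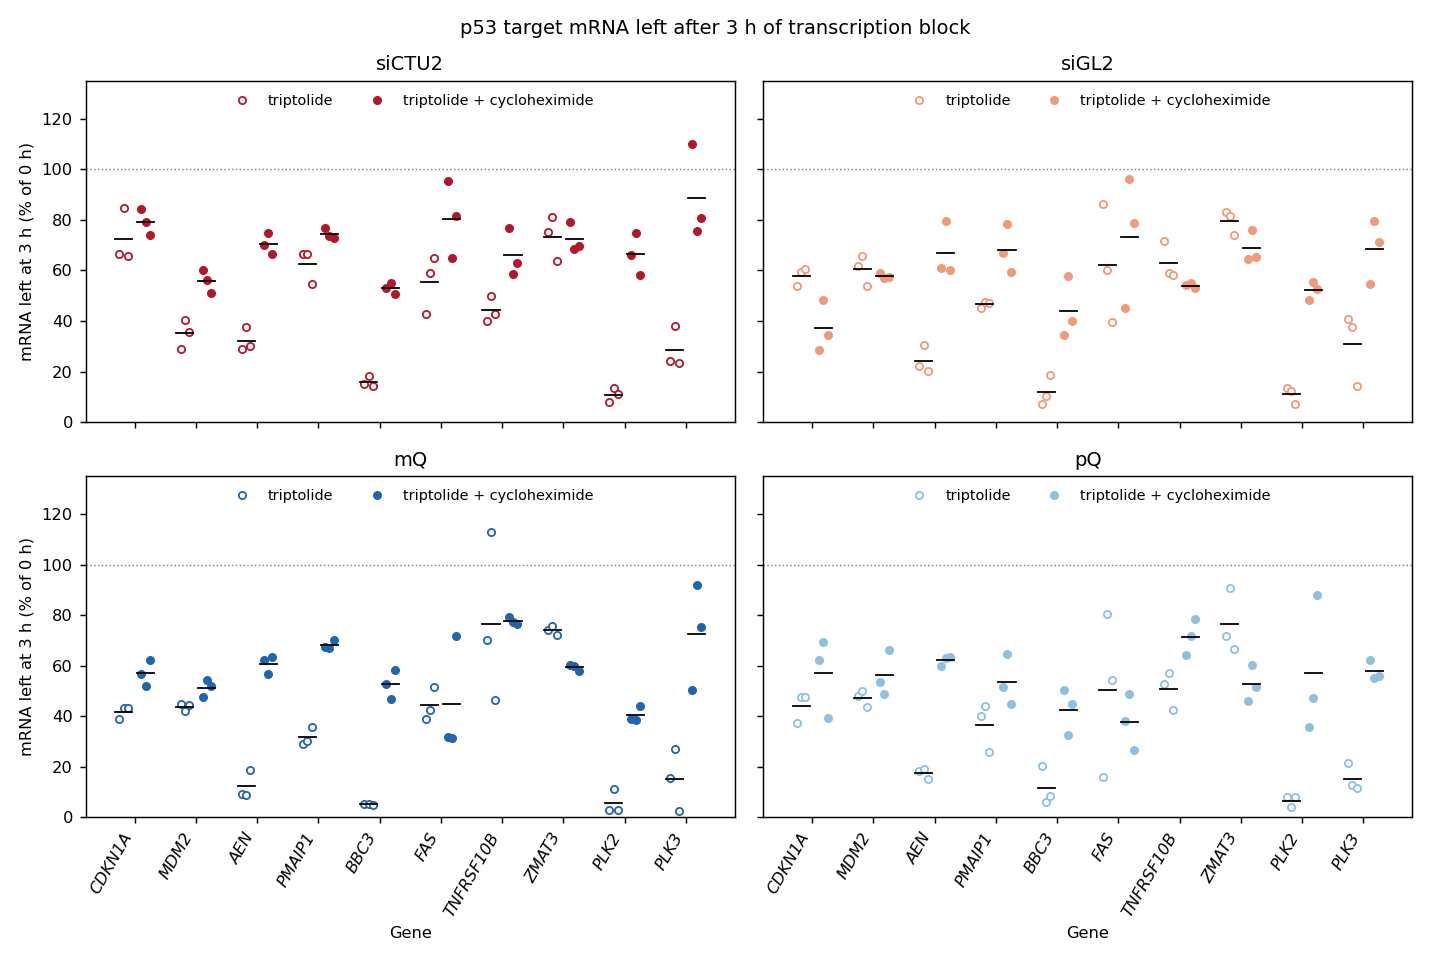
Percent of the 0 h level left 3 h after triptolide, T arm and TCHX arm, for each of the 10 p53 target genes in the 4 conditions, with 1 point per library and a bar at the mean. PLK2 lies at 2.87 to 13.4% in the T arm and at 35.7 to 88.2% in the TCHX arm, where the 88.2% of pQ replicate 3 is divided by the 0 h library with extra genes detected, whereas ZMAT3 lies at 63.8 to 90.8% and 46.2 to 79.3%.

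ZMAT3 had the smallest loss of the members over 3 h in all 4 conditions, although CDKN1A was close in siCTU2 (-0.46 for ZMAT3, -0.47 for CDKN1A). Over 5 h, CDKN1A fell less in siCTU2 (-0.62 against -0.65) and FAS was about equal in mQ (-0.45 against -0.46). In the T arm at 3 h, 75.05, 81.3 and 63.8% of ZMAT3 was left in siCTU2 and 83.1, 81.7 and 74.0% in siGL2, above or near the medians of all genes. Its log2 changes of -0.46, -0.34, -0.44 and -0.40 in siCTU2, siGL2, mQ and pQ passed in siCTU2 (adjusted p = 0.012) and pQ (adjusted p = 0.0212). All 4 turned positive with TMM scaling, which sets the median of all genes near 0. The pQ call was also lost without any 1 replicate (adjusted p from 0.0570 to 0.174) and with no low count filter (adjusted p = 0.140). The siCTU2 call was lost without replicate 1 or 2 (adjusted p = 0.142 and 0.0650) and with no low count filter (adjusted p = 0.0849). In the other direction, the mQ value passed in 4 of 10 alternatives and the siGL2 value in 2 of 9. CDKN1A lay in the middle in siGL2, mQ and pQ. It fell by 0.79 in siGL2 (adjusted p = 0.00345), by 1.25 in mQ (adjusted p = 0.0294) and by 1.16 in pQ (adjusted p = 0.00143). Its value of -0.47 in siCTU2 did not pass (adjusted p = 0.058) and was 0.07 with TMM scaling. That siCTU2 value passed in 6 of 10 alternatives. Among them were 5 h in place of 3 h (-0.62, adjusted p = 0.00932) and the fit without the library labelled TCHX 5 h replicate 3 (adjusted p = 0.0219). The 3 calls of CDKN1A were lost with TMM scaling, at -0.31 in siGL2 (adjusted p = 0.530), -0.50 in mQ (adjusted p = 0.508) and -0.44 in pQ (adjusted p = 0.486). They were also lost without replicate 1 or replicate 2 in siGL2 (adjusted p = 0.0768 and 0.0552) and in mQ (adjusted p = 0.126 and 0.119).

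MDM2 fell in every condition, by 1.51 in siCTU2 (adjusted p = 0.000102), 0.73 in siGL2, 1.19 in mQ and 1.08 in pQ. With TMM scaling the call held in siCTU2 (-0.97) and was lost in siGL2 (-0.26, adjusted p = 0.329), mQ (-0.45, adjusted p = 0.201) and pQ (-0.38, adjusted p = 0.0601). It was also lost in siGL2 when replicate 1 or 2 was left out (adjusted p = 0.0778 and 0.0885), and in mQ when replicate 2 was (adjusted p = 0.0603). In siCTU2, 29.1, 40.5 and 35.8% of it was left at 3 h, and 61.8, 65.9 and 53.8% in siGL2, so that the groups did not overlap. At 5 h, 18.5, 26.3 and 18.3% was left against 55.0, 57.4 and 40.3%, again without overlap. The difference in decay between the siRNAs was -0.78 (95% interval -1.34 to -0.22), with an unadjusted p of 0.0105 and an adjusted p of 1. PMAIP1 fell by 1.0998 in siGL2, 1.64 in mQ and 1.43 in pQ, with -0.67 in siCTU2 (adjusted p = 0.0683). Its siGL2 call was lost with TMM scaling (-0.62, adjusted p = 0.222) and when replicate 1 or 2 was left out (adjusted p = 0.261 and 0.116). The siCTU2 value of PMAIP1 was -0.13 with TMM scaling (adjusted p = 0.794). It passed in 5 of 10 alternatives, among them 5 h in place of 3 h (-1.20, adjusted p = 0.0017).

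The death receptors had wider errors. FAS passed in siCTU2 (-0.85, adjusted p = 0.0405), a call lost with TMM scaling (-0.30, adjusted p = 0.543), with no low count filter (adjusted p = 0.0754), and when replicate 1 or 2 was left out (adjusted p = 0.339 and 0.142). Its values of -0.77, -1.10 and -1.16 in siGL2, mQ and pQ did not pass. TNFRSF10B fell by 1.18 in siCTU2 (adjusted p = 0.000421) and 0.97 in pQ (adjusted p = 0.0199), with -0.67 in siGL2 and -0.57 in mQ, and its value in mQ was 0.18 with TMM scaling. The pQ call was lost with TMM scaling (-0.29, adjusted p = 0.610) and when replicate 1 or 2 was left out (adjusted p = 0.126 and 0.0924). In mQ replicate 2, 113% of the 0 h level of TNFRSF10B was found at 3 h, against 70.2% and 46.7% in replicates 1 and 3.

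Decay was next compared between conditions, with an interaction term over 36 libraries. In siCTU2 against siGL2, 0 of the 10 members passed in either direction, and neither did any of the 14259 genes tested (0% in both directions), of which 414 had an unadjusted p under 0.05. In mQ against pQ, 0 members passed, again with 0% of 14177 genes in either direction and 356 at an unadjusted p under 0.05. By DESeq2, 8 and 2 genes passed in the 2 comparisons, none of them a member. Without replicate 3, AEN decayed faster in mQ than in pQ (log2 -1.07, adjusted p = 0.0154, against -0.47 and an adjusted p of 1 over all libraries).

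Cycloheximide slows the decay of mRNAs whose loss depends on translation. Its effect was tested as the mean log2 difference of TCHX minus T at 3 and 5 h. It was higher for 6 members in siCTU2, 3 in siGL2, 4 in mQ and 5 in pQ, where 21%, 12.1%, 5.12% and 12.3% of all genes were called higher. It was lower for 1 member in siCTU2, 1 in siGL2, 0 in mQ and 1 in pQ, against 0.169%, 0.555%, 0.119% and 0.457% of all genes. The median effect on the members was 0.65, 0.33, 0.69 and 0.57 in these conditions, and that on all genes 0.22, 0.05, 0.05 and 0.06. With TMM scaling, 5, 4, 5 and 5 members were higher and 1 was lower in each condition, and 76.8, 79.8, 84.3 and 86.2% of the genes called were higher, against 99.2, 95.6, 97.7 and 96.4% with the stable genes. In mQ, 0 members and 2 genes in all passed without replicate 1, 0 members and 1 gene without replicate 2, and 8 members and 3286 genes without replicate 3.

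PLK2, the member with the largest loss over 3 h, had the largest effect of the 10 members in siCTU2, siGL2 and pQ. At 3 h in siCTU2, 66.1, 74.8 and 58.4% was left in the TCHX arm, far above the 7.87 to 13.4% of the T arm. The effect was 2.88 in siCTU2 (7.35-fold, adjusted p = 3.84e-07), 2.59 in siGL2 (adjusted p = 2.26e-05), 2.01 in mQ (adjusted p = 0.0258) and 3.26 in pQ (9.59-fold, adjusted p = 4.19e-06). PLK3 was higher in all 4 conditions too, at 1.36 in siCTU2 (adjusted p = 0.00142), 1.94 in siGL2 (adjusted p = 0.00114), 2.04 in mQ (adjusted p = 0.0286) and 1.98 in pQ (adjusted p = 7.72e-05). In siCTU2 the PLK3 call was lost without replicate 1 (1.09, adjusted p = 0.127) and at 3 h alone (1.18, adjusted p = 0.105). In siGL2 it was lost without replicate 1 (2.21, adjusted p = 0.0546) or replicate 2 (1.75, adjusted p = 0.0870). There it was also lost at 3 h alone (1.36, adjusted p = 0.195) and with the 0 h difference subtracted (1.78, adjusted p = 0.135). In mQ, DESeq2 gave no adjusted p for PLK3 or AEN, so that these members were not judged by it there. The PLK2 and PLK3 calls in mQ were each lost in 5 alternatives. These were without replicate 1 or 2, at either time alone and with the 0 h difference subtracted.

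AEN was at 70.2, 74.9 and 66.6% in the TCHX arm of siCTU2 at 3 h, against 28.9, 37.6 and 30.03% in the T arm, with no overlap. Its effect was 1.75 in siCTU2, 2.00 in siGL2 and 2.32 in pQ, with adjusted p-values of 3.27e-07, 1.46e-07 and 5.07e-09. These 3 calls, like those of PLK2 in the same conditions, held under every alternative run. In mQ the effect of 1.58 did not pass (adjusted p = 0.065). There, 4.72 and 4.43% of AEN was left in the T arm at 5 h in replicates 1 and 2 and 64.5% in replicate 3, which is 1 of the libraries with extra genes detected. Without that library the effect was 2.86 and passed (adjusted p = 9.67e-09).

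The same library moved the other short-lived members in mQ. BBC3 stood at 3.65, 0.406 and 21.4% in the T arm at 5 h, and PLK2 at 2.23, 10.7 and 42.8%, with replicate 3 far above the others. The effect on BBC3 in mQ was 2.05 (adjusted p = 0.0235) and 3.41 without this library (adjusted p = 3.06e-08), and that on PLK2 was 3.15 without it (adjusted p = 2.76e-07). The effect on PLK3 in mQ was 3.23 without it (adjusted p = 6.00e-06). The BBC3 call in mQ was lost in 5 of 12 alternatives. These were without replicate 1 or 2, at either time alone and with the 0 h difference subtracted. In the other conditions BBC3 was higher in siCTU2 (2.23, adjusted p = 0.000886) and pQ (2.38, adjusted p = 0.000155), and its 1.35 in siGL2 just missed (adjusted p = 0.0504) but passed by DESeq2 (adjusted p = 0.0150). The siCTU2 call was lost at 3 h alone (1.86, adjusted p = 0.0842) and with the 0 h difference subtracted (2.12, adjusted p = 0.0673). In siCTU2 the BBC3 effect was 1.38 without the library labelled TCHX 5 h replicate 3 (adjusted p = 0.000472), in which 61.3% of BBC3 was left, against 7.72 and 12.7% in replicates 1 and 2.

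BBC3 and AEN differed in how much was left at the later time. In mQ at 3 h, 52.7, 46.8 and 58.6% of BBC3 was left with cycloheximide, and at 5 h 18.0, 23.0 and 13.4%, without overlap between the times. AEN in the same libraries stood at 62.4, 56.7 and 63.7% at 3 h and at 56.4, 58.0 and 53.5% at 5 h. The difference between times in the TCHX arm was not tested. PMAIP1 was higher with cycloheximide in mQ (1.14, adjusted p = 0.00287) and pQ (0.86, adjusted p = 0.00214), and had values of 0.56 (adjusted p = 0.0568) and 0.57 (adjusted p = 0.213) in siCTU2 and siGL2. The siCTU2 value passed without the library labelled TCHX 5 h replicate 3 (0.62, adjusted p = 0.0472). The pQ call was lost with genes stable at both times (0.54, adjusted p = 0.0914), without replicate 1 (0.89, adjusted p = 0.0961), at 3 h alone (0.84, adjusted p = 0.0862) and with the 0 h difference subtracted (0.53, adjusted p = 0.471). The mQ call was lost when replicate 1 or 2 was left out (adjusted p = 0.209 and 0.507), at either time alone (adjusted p = 0.0529 and 0.0718) and with the 0 h difference subtracted (adjusted p = 0.500).

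Other members had small or opposite effects. ZMAT3 was lower with cycloheximide in siCTU2 (-0.28, adjusted p = 0.0404) and pQ (-0.35, adjusted p = 0.0216), with -0.21 and -0.34 in siGL2 and mQ. The pQ call was lost in 5 of 12 alternatives, among them without replicate 1 (-0.33, adjusted p = 0.306) and without replicate 2 (-0.34, adjusted p = 0.221). The siCTU2 call was lost in 8 of 12, among them without any 1 of the 3 replicates (adjusted p from 0.0705 to 0.288). TNFRSF10B was higher in siCTU2 (0.42, adjusted p = 0.0487), a call that was lost in 10 alternatives. The ZMAT3 and TNFRSF10B calls in siCTU2 were both lost without the library labelled TCHX 5 h replicate 3 (-0.25, adjusted p = 0.0972, and 0.36, adjusted p = 0.123). FAS had effects between -0.25 and 0.09, and did not pass in any condition.

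**Figure D4:**
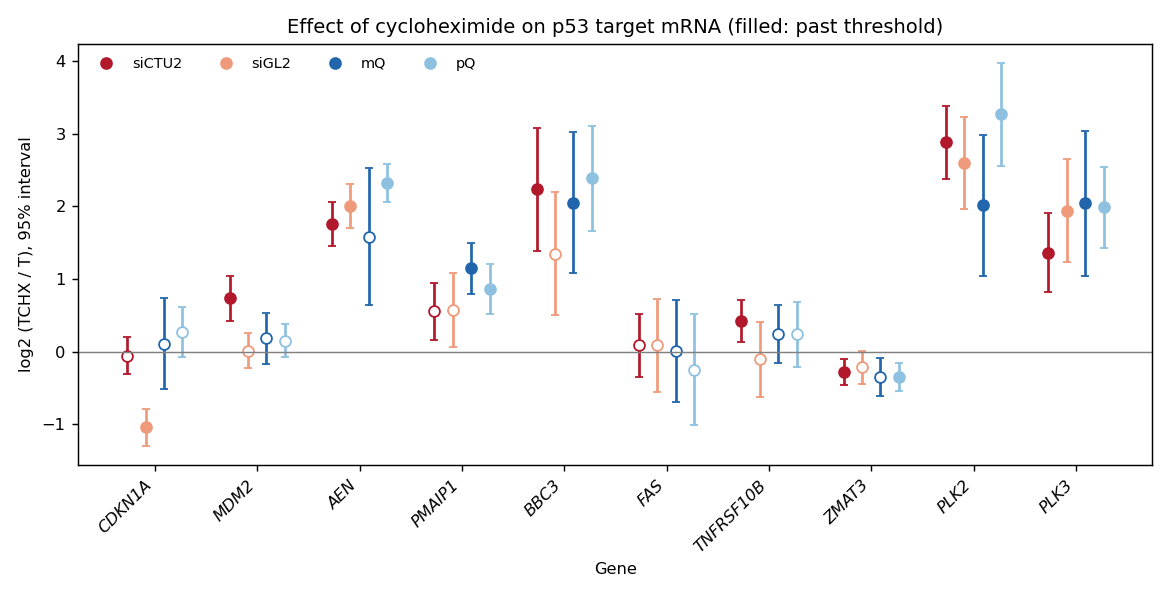
Cycloheximide effect (log2 difference of TCHX minus T, mean of 3 and 5 h) on the 10 p53 target genes in the 4 conditions, with bars for the 95% interval and filled points for an adjusted p under 0.05 (edgeR, 18 libraries per condition). PLK2 lies at 2.01 to 3.26, and CDKN1A is at -1.04 in siGL2 and between -0.05 and 0.27 in the other conditions.

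CDKN1A stood apart in siGL2. At 3 h, 53.8, 59.5 and 60.5% was left in the T arm and 28.5, 48.5 and 34.5% in the TCHX arm, and at 5 h 33.9, 45.8 and 43.3% and 12.9, 20.4 and 13.8%. At both times all TCHX libraries were below all T libraries, so that less CDKN1A mRNA remained when translation was blocked. The effect was -1.04 ± 0.13 (SE, 2.06-fold lower, adjusted p = 2.16e-05), and 1.08% of the genes tested had a lower value. This call held under every alternative run. In siCTU2 the arms overlapped, with 66.6, 84.7 and 65.8% at 3 h in the T arm and 84.2, 79.4 and 74.2% in the TCHX arm, and the effect of -0.05 (95% interval -0.31 to 0.21) did not pass. The effects of 0.11 in mQ and 0.27 in pQ did not pass either, and the difference between siGL2 and pQ was not tested.

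The difference in cycloheximide effect between siCTU2 and siGL2 was tested over 36 libraries. CDKN1A was the 1 member that passed, with a difference of 0.99 ± 0.18 (SE, adjusted p = 0.0114), where 0.351% of 14259 genes passed in the positive direction and 0.0281% in the negative. The value was 1.09 (adjusted p = 0.000768) without the library labelled siCTU2 TCHX 5 h replicate 3. It was 0.70 (adjusted p = 1) at 3 h alone and 1.27 (adjusted p = 0.0240) at 5 h alone. It was 1.07 (adjusted p = 0.395) without replicate 1 and 0.995 (adjusted p = 0.147) without replicate 2. It was 0.86 (adjusted p = 0.0741) with TMM scaling, 1.09 (adjusted p = 0.0511) with genes stable at both times and 1.12 (adjusted p = 0.905) with the 0 h difference subtracted.

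MDM2 had a difference in the same direction that did not pass. Its cycloheximide effect was 0.73 in siCTU2 (adjusted p = 0.00218) and 0.01 in siGL2 (95% interval -0.23 to 0.26). The siCTU2 call was lost without replicate 1 (0.71, adjusted p = 0.0763) and at 3 h alone (0.51, adjusted p = 0.288). At 3 h in siCTU2, 60.02, 56.2 and 51.0% was left in the TCHX arm, above the 29.1 to 40.5% of the T arm, whereas in siGL2 the TCHX arm had 58.9, 57.2 and 57.5%, within the range of the T arm. The difference was 0.72 (95% interval 0.32 to 1.12, adjusted p = 0.133), it passed by DESeq2 (adjusted p = 0.0467), and it was 0.51 without the library labelled siCTU2 TCHX 5 h replicate 3 (adjusted p = 0.312). In mQ against pQ, 0 members and 0% of 14177 genes passed in either direction by edgeR, and 525 genes had an unadjusted p under 0.05. Without replicate 3, 301 genes and 2 members passed, AEN (0.69, adjusted p = 0.0304, against -0.74 over all libraries) and PMAIP1 (0.75, adjusted p = 0.0207). Without mQ T 5 h replicate 3 alone, 68 genes and 0 members passed, and AEN was at 0.54 (adjusted p = 0.433). The largest member difference over all libraries was that of PLK2 (-1.25, 95% interval -2.55 to 0.04).

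**Figure D5:**
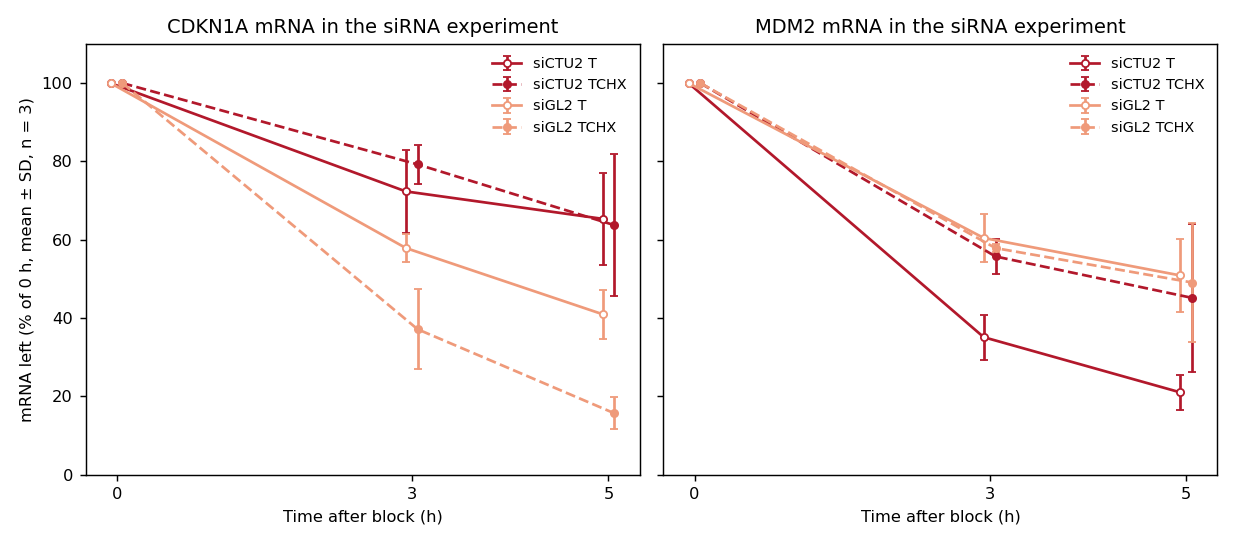
CDKN1A and MDM2 mRNA left (percent of 0 h, mean ± SD, n = 3) at 0, 3 and 5 h in the T arm (solid lines, open points) and the TCHX arm (dashed lines, filled points) of siCTU2 and siGL2. CDKN1A in siGL2 is at 15.7% in the TCHX arm at 5 h, below the 41.0% of the T arm, and MDM2 in siCTU2 is at 21.0% in the T arm at 5 h, against 50.9% in siGL2.

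The members differed in the 3′ untranslated sequence that is known to mark short-lived mRNAs. The AU-rich nonamer TTATTTATT, searched on the transcript strand of the canonical transcript, was found in 6 of the 10 members and in 8.34% of 19678 genes. It was present in PLK2, PLK3 and AEN, which decayed fast and were preserved by cycloheximide, in MDM2, PMAIP1 and TNFRSF10B, and it was not found in BBC3, CDKN1A, FAS or ZMAT3. The shorter pentamer ATTTA, which the nonamer contains, was found in 9 of 10, all but BBC3. It is common, with a median of 2 per gene over all genes, and the share of genes that hold it was not computed. Neither count was adjusted for the length of the 3′ untranslated sequence. The nonamers of 5 members are shown in capitals with 6 flanking bases on each side.
PLK2: aactttTTATTTATTacagcc
PLK3 site 1: ccacttTTATTTATTgtcaga
PLK3 site 2: agacacTTATTTATTgggatg
AEN: tgacctTTATTTATTtattaa
MDM2: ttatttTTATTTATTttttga
PMAIP1: ataattTTATTTATTttgcct

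These windows lie at chr5:58454070-58454090 on the minus strand for PLK2, chr1:44805904-44805924 and chr1:44805922-44805942 on the plus strand for PLK3, chr15:88631186-88631206 for AEN, chr12:68844766-68844786 for MDM2 and chr18:59903965-59903985 for PMAIP1, the last 3 on the plus strand. In AEN another match overlaps the one shown. PLK3 had the shortest 3′ UTR of the members, with 312 bases and 9.62 pentamers per kb, against a median of 1.46 per kb over all genes. BBC3, with 978 bases and 0 pentamers, had log2 changes over 3 h between -2.66 and -4.28. Binding to these sequences was not measured.

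Over the 24 group means of log2(CPM + 1), the members did not follow 1 pattern. AEN, PLK2 and PLK3 were closely correlated (Pearson r = 0.948 for AEN and PLK2, 0.944 for AEN and PLK3, 0.939 for PLK2 and PLK3), as were FAS and ZMAT3 (0.884), while CDKN1A and MDM2 had an r of -0.478. Among 9662 genes with a mean of at least 5 CPM, the 5 most like CDKN1A were KHNYN (0.967), PTP4A1 (0.962), PDE1C (0.956), SYTL2 (0.947) and FN1 (0.944), and ZMAT3 was the most like among the members (0.797, rank 280). These group means share libraries, treatments and depth, and the correlations are descriptions only.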

How the data were processed

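The 72 cytoplasmic QuantSeq libraries of A375 cells were taken as deposited. The authors trimmed the reads with fastp 0.20.1, aligned them to GRCh38.p13 with HISAT2 2.2.1 and made counts per gene with HTSeq 0.13.5, per the labels and the submitters' processing notes. The deposited values are raw counts for 44659 gene names, without molecular identifiers, so that copies made by PCR can be counted. Each SE was derived from the log2 fold change and the F statistic of the edgeR fit. Intervals use this SE with a normal quantile, so that they can be narrower than the F-test implies. They cover the spread between libraries. Whether strand was used in counting is not given in the sources used here, 0 spike-in names are in the table, and 0 names carry a copy suffix of a member.

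Counts were tested in R 4.3.3 with edgeR 4.0.16 (filterByExpr, quasi-likelihood, Benjamini-Hochberg over all genes tested, threshold 0.05), with DESeq2 1.42.0 as an alternative. At 0 h, TMM scaling was used on 6 libraries. Decay and cycloheximide effects used the 18 libraries of a condition, and differences between conditions 36 libraries, scaled to stable genes (over 0.2 CPM at 0 h, at least 1.1 times higher later). Percent left is the scaled count over that of the same arm and replicate number at 0 h. The tests were tested on simulated counts. The text names all 10 members and CTU2, and the 3 largest called rises and falls of the lists of other p53 targets and regulators in each 0 h comparison. It also names the 5 genes most like CDKN1A. A further gene of this rule is not reported here. The members and lists were chosen with earlier results of these data known. Sequences and positions came from the GENCODE annotation of GRCh38.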

Additional observations from a re-analysis of the deposited data

Results flagged for a closer look

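The cycloheximide effect on CDKN1A, the p21 inhibitor of cyclin-dependent kinases, was singled out because it differed between the 2 siRNA conditions in the test of the difference itself. The log2 effect was -0.05 in siCTU2 and -1.04 in siGL2, a difference of 0.99 (adjusted p = 0.0114, edgeR, interaction over 36 libraries). The difference kept its sign in all 12 alternatives (0.70 to 1.27), but its call was lost in 6 of them. Among these were TMM scaling (adjusted p = 0.0741) and the fits without replicate 1 (adjusted p = 0.395) or replicate 2 (adjusted p = 0.147). At 5 h in siGL2, 12.9, 20.4 and 13.8% of CDKN1A mRNA was left with cycloheximide and 33.9, 45.8 and 43.3% without it. The 0 h level of CDKN1A also differed between these conditions, by 2.49 on the log2 scale, and the part of this in the difference was not tested.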

How the results depend on the processing

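The cause of each change given here was not tested unless the setting itself shows it. Among the values of single members under the alternatives, 952 kept their direction and their side of the threshold, 108 lost a call, 56 gained one and 41 changed sign. In the TCHX arm at 0 h, 810 genes were called in mQ against pQ (3071 in the T arm), TNFRSF10B was -0.11 in siCTU2 and PLK2 was 0.16 in mQ. Without pQ replicate 3 in that arm, 2553 genes were called and PLK2 was -0.0058. With TMM, decay was called for 1280 genes in siCTU2 (5069 with stable genes), 1259 in siGL2 (3904), 981 in mQ (7599), 1243 in pQ (7510) and 1 between the siRNAs (0), and for 4 members in siGL2 (7) and 5 in pQ (9). The cycloheximide effect was then called for 1193 genes in mQ (704) and 32 between the siRNAs (54), 0 of them members (1), and 81.2% of the latter were higher, against 92.6%. Signs changed with TMM for CDKN1A decay in siCTU2 (0.075), ZMAT3 decay (0.085, 0.14, 0.30 and 0.28 in siCTU2, siGL2, mQ and pQ), TNFRSF10B decay in mQ (0.18), and the cycloheximide effects on FAS in siCTU2 (-0.10) and mQ (-0.044) and on MDM2 in siGL2 (-0.075). With genes stable at both times (8 in the siRNA and 3 in the medium experiment), decay was called for 8210 genes in siCTU2, 8375 in siGL2 and 11406 in mQ, and cycloheximide effects for 1253 in mQ, 1110 in siGL2 (1670) and 9 between the siRNAs, 0 of them members. Effects of 0.0061 for CDKN1A in siCTU2 and -0.085 in pQ, of -0.036 and -0.18 for MDM2 in siGL2 and pQ, and of -0.079 for TNFRSF10B in pQ changed sign. Without the low count filter, cycloheximide effects were called for 1548 genes in mQ, 90 between the media and 137 between the siRNAs, and decay for 36 between the media and 18 between the siRNAs. With DESeq2 the same 5 counts were 1165, 2, 160, 2 and 8, and 2 members passed between the siRNAs. With 5 h in place of 3 h, decay was called for 8888 genes in siCTU2, 6387 in siGL2 and 21 between the siRNAs, and AEN decay in mQ against pQ was 1.89. With 3 h alone, cycloheximide effects were called for 590 genes in siCTU2 (2881), 461 in siGL2, 46 in mQ, 380 in pQ (1701) and 0 between the siRNAs, and for 2 members in siCTU2 (7), 0 in mQ (4) and 0 between the siRNAs. CDKN1A in siCTU2 (0.029), FAS in pQ (0.078) and AEN in mQ against pQ (0.49) changed sign. With 5 h alone, 31 genes and 0 members were called in mQ, and CDKN1A (-0.22), FAS (-0.32) and TNFRSF10B (-0.037) in mQ and FAS in siGL2 (-0.12) changed sign. With the 0 h difference subtracted, 1177 genes were called in siCTU2, 506 in siGL2, 1 in mQ, 703 in pQ and 0 between the siRNAs, with 4 members in siCTU2, 0 in mQ and 0 between the siRNAs. CDKN1A in siCTU2 (0.047), MDM2 in siGL2 (-0.057), and FAS (-0.43) and TNFRSF10B (-0.072) in mQ changed sign.

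The ranges that follow cover only the fits that left out a replicate or a single library. Genes called then ranged from 1476 to 3319 in mQ against pQ at 0 h. Those called for decay ranged from 1182 to 5892 in siCTU2, 1277 to 6171 in siGL2, 2047 to 8315 in mQ, 3272 to 8621 in pQ, 0 to 22 between the siRNAs and 0 to 283 between the media. Members called for decay ranged from 5 to 10 in siCTU2, 3 to 8 in siGL2, 4 to 8 in mQ and 0 to 1 between the media. Genes with a cycloheximide effect ranged from 1275 to 2466 in siCTU2, 688 to 2576 in siGL2, 1 to 3286 in mQ, 754 to 2246 in pQ, 1 to 54 between the siRNAs and 0 to 301 between the media. Members with such an effect ranged from 3 to 6 in siCTU2, 0 to 8 in mQ, 0 to 1 between the siRNAs and 0 to 2 between the media. Single values that changed sign in these leave-out fits were, at 0 h, BBC3 in siCTU2 (-0.042 to 0.52) and PLK3 in mQ (-0.20 to 0.25). Cycloheximide effects that did so were CDKN1A in mQ (-0.016 to 0.61) and siCTU2 (-0.089 to 0.053), FAS in mQ (-0.31 to 0.48), pQ (-0.92 to 0.23) and siGL2 (-0.046 to 0.26), MDM2 in siGL2 (-0.0043 to 0.019), and, in mQ against pQ, PMAIP1 (-0.0031 to 0.75) and AEN (-1.06 to 0.69). The settings with 5 h alone, without pQ replicate 3 in the TCHX arm at 0 h, without siCTU2 TCHX 5 h replicate 3, without mQ T 5 h replicate 3 and without pQ TCHX 0 h replicate 3 were chosen after seeing the data. Leaving out pQ TCHX 0 h replicate 3 changed no call of a member in pQ or in mQ against pQ, for decay or for the cycloheximide effect. That library enters neither of these differences, only the estimate of spread, so this fit cannot show how much it matters. The cycloheximide effect with the 0 h difference subtracted, which it does enter, was not fitted without it.

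Of 72 pairs of libraries with the same replicate number, 58 had a correlation of deviations over 0.1 (-0.326 to 0.851, median 0.253), and 58 of 72 libraries correlated best with their own number. The column headers of the counts carry a prefix shared by all libraries of 1 replicate number, and do not say what it stands for. Since not every pair was over 0.1 and the labels name no shared culture or day, the block was kept as an alternative. With the replicate number as a block, 1 gene was called for decay in mQ against pQ (0 without it). Members called for decay then numbered 10 in siCTU2 (8 without it), 7 in siGL2 (7), 8 in mQ (7) and 10 in pQ (9). CDKN1A (-0.48, adjusted p = 0.0218) and PMAIP1 (-0.69, adjusted p = 0.00984) decay in siCTU2, ZMAT3 decay in mQ (-0.43, adjusted p = 0.0217) and FAS decay in pQ (-1.23, adjusted p = 0.0472) gained calls with the block. So did the cycloheximide effects on PMAIP1 in siCTU2 (0.58, adjusted p = 0.00445) and AEN in mQ (1.91, adjusted p = 0.0179).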

Other observations

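CTU2 takes part in the thiolation of the tRNAs that read the codons AAA, GAA and CAA. In the canonical coding sequences, these codons made up 15.9% of MDM2, 14.03% of FAS and 1.04% of BBC3, against a median of 5.65% over 19678 genes. The other members were at 11.1% (PMAIP1), 10.1% (PLK2), 6.82% (TNFRSF10B), 6.23% (ZMAT3), 3.05% (CDKN1A), 2.46% (AEN) and 1.86% (PLK3). MDM2, FAS and BBC3 were picked out after their values were seen, and a relation between codon content and expression was not tested.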
